A study of Mus musculus with 4 samples.

Results

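Endothelial cells line blood and lymphatic vessels, and a set of 35 genes known for expression in them was followed in mouse prostate. The genes were chosen by name, with earlier results of these data known. All 35 were found among the 23242 rows of the expression table. They comprise 27 genes of vascular endothelium, 4 linked to lymphatic vessels (Flt4, Lyve1, Prox1, Pdpn) and 4 adhesion genes that capture leukocytes (Sele, Selp, Vcam1, Icam1). RNA was sequenced from the ventral and dorsal lobes of the prostate in 4 mice of the FVB strain. Mice 27 and 28 were wild type and negative for ERG, and mice 26 and 29 were homozygous for the TMPRSS2:ERG transgene and positive for ERG. The transgene is a bacterial artificial chromosome with the TMPRSS2 locus, into which exons 4 to 11 of human ERG were placed behind a GFP cassette flanked by loxP sites. Cre protein removed that cassette by injection into pronuclei, and 1 sub-line was bred to homozygosity, so both homozygotes come from a single line. The labels give no ages.

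Vessels grow, mature and regress under a few ligand and receptor systems. VEGF ligands act through the receptors encoded by Kdr, Flt1 and Flt4, and angiopoietins act through the receptor encoded by Tek. Angpt1 keeps vessels quiet, while Angpt2, made mainly by endothelial cells when vessels remodel, usually opposes it. Endothelial cells also use ETS-family transcription factors, including their own Erg, which makes vascular genes of interest in a mouse that carries human ERG under a promoter active in prostate epithelium.

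The deposited values are FPKM (fragments counted per gene, scaled for transcript length and library size). They were divided by 1 scaling factor per library, between 0.921 and 1.04, and are given below as scaled FPKM. The spacing of the lowest values places the libraries near 45.3 to 52.0 × 1e6 fragments each, an estimate. The tissue label was checked against markers. Pbsn, the prostate probasin gene, was at 9477 to 14390 scaled FPKM, and all 8 defining endothelial markers (Pecam1, Cdh5, Kdr, Tie1, Tek, Emcn, Cldn5, Esam) were detected in every library. Seminal vesicle genes were also present and uneven. Of the 9 listed, only 6 held a value in every library. The others held a missing or coded value in at least 1 library, so no sum over the 9 is given. Svs1 alone was at 3421 and 236 in wild types 27 and 28, against 3.83 and 1.04 in homozygotes 26 and 29. Of the 6 tested as described below, 5 passed as lower (background 3.00% of all genes tested). With no filter or with a robust trend, 0 passed.

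Homozygotes were compared with wild types to ask which endothelial transcripts differ in prostate that carries the fusion. Angpt2 was about 10 times higher in homozygotes, while none of the other 26 tested genes passed the threshold. The angiopoietin receptors and the VEGF receptors differed by less than 0.30 on the log2 scale. Tests used limma on log2(scaled FPKM + 1) across the 11762 genes whose mean reached 1 scaled FPKM, with Benjamini-Hochberg adjustment and a threshold of 0.05. Of the 35 genes, 27 passed that filter, and 8 did not. Over all genes tested, 7.65% passed in either direction. Among the 27, 1 was higher (background 4.65% of all genes tested) and 0 were lower (background 3.00%), and 2 had an unadjusted p under 0.05. The authors' deposited table has 2 of the genes higher (background 7.04%) and 1 lower (background 7.10%) at a q-value under 0.05. Nothing in the labels says that mice of 1 genotype came from separate litters or cages, so p-values measure only the spread between these animals.

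**Figure D1:**
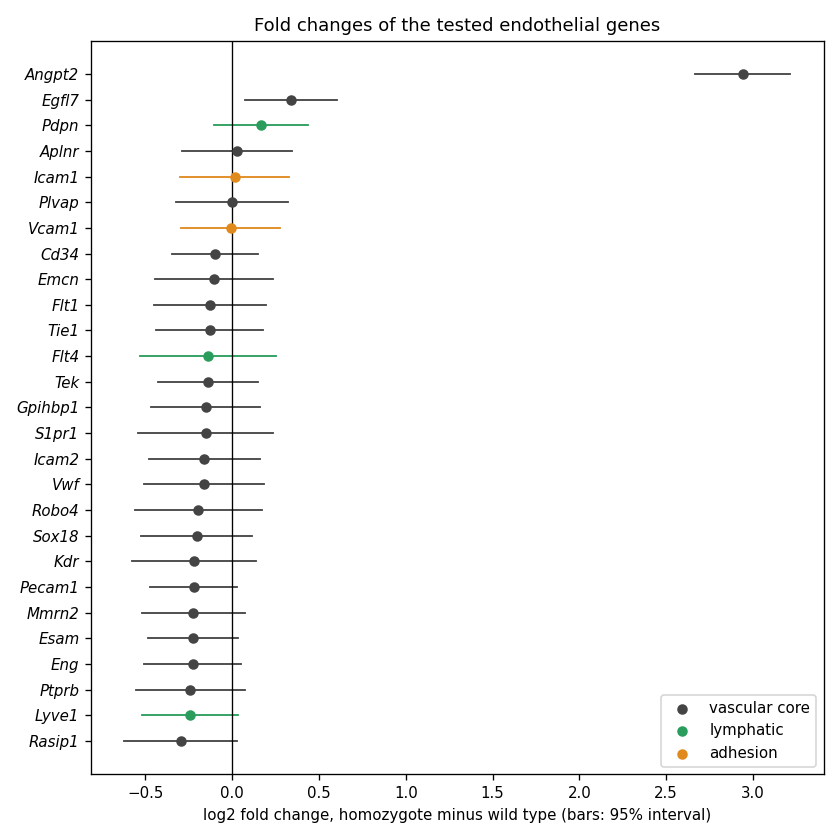
Log2 fold change of each of the 27 tested endothelial genes, homozygote minus wild type (x axis, on the log2(scaled FPKM + 1) scale, 2 mice per genotype), with bars for the 95% interval from limma. Angpt2 stands at 2.94, and the intervals of the other 26 genes lie between -0.62 and 0.60.

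Angpt2 encodes angiopoietin 2, a secreted ligand of the Tek receptor (Entrez 11601, chromosome 8, 18691337 to 18741551, mm10, minus strand). It was at 2.86 and 3.17 scaled FPKM in wild-type mice 27 and 28 and at 31.2 and 28.6 in homozygous mice 26 and 29. Both homozygotes were far above both wild types, and the mice of each genotype lay close together. The mean went from 3.02 ± 0.223 (SD, n = 2) to 29.9 ± 1.84 (SD, n = 2), a 9.90-fold ratio. The log2 fold change was 2.94 (SE 0.110, limma adjusted p = 1.84e-04), the 37th largest rise among the 11762 genes tested. An exact two-sided permutation test on 2 against 2 mice gave p = 0.33, the smallest that 6 arrangements allow. The authors' deposited table has Angpt2 at a log2 fold of 3.32, and lists its q-value as 0.

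Among the 35 genes Angpt2 held the 15th place by mean level in wild type and the highest in homozygotes, above Cd34. Angpt2 lies inside Mcph1, a gene on the opposite strand, and the labels do not say whether reads were counted by strand. None of the 9 annotated Angpt2 exons (0 of 9) overlaps an Mcph1 exon. Mcph1 itself measured 2.53 and 2.49 scaled FPKM in wild types 27 and 28, against 2.43 and 2.72 in homozygotes 26 and 29, so the genotypes overlapped (log2 fold change 0.03, SE 0.116, limma adjusted p = 0.938).

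Markers of some other cell types differed as well, where 4.65% of all genes tested passed as higher and 3.00% as lower. Mast cell markers rose in 6 of 7 tested genes, with a summed level of 12.0 and 14.8 scaled FPKM in wild types 27 and 28, against 299 and 233 in homozygotes 26 and 29, and the 7th, Kit, did not pass (log2 fold change 0.42, SE 0.144, limma adjusted p = 0.170). Of the 6, Tpsab1 and Fcer1a passed the filter only through the homozygotes. Markers of mural cells, the cells that cover vessels, summed to 29.8 and 37.0 in wild type against 21.9 and 23.9 in homozygotes. All 7 tested lay below 0 (background 50.6% of all genes tested), with a median of -0.32. In 5 of them both homozygotes were below both wild types (background 25.8%). Of the 7 mural markers tested, Mcam fell (log2 fold change -0.62, SE 0.130, limma adjusted p = 0.0486) and the others did not pass. The Mcam call was lost with unscaled FPKM, with no filter, with no trend, without mouse 26 and without mouse 29, and without mouse 27 2 mural markers fell. The part of these cells in the Angpt2 difference was not tested.

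The other angiopoietin ligands and the receptors showed no such difference. Angpt1 measured 1.13 and 0.918 scaled FPKM in wild types 27 and 28, against 1.06 and 1.49 in homozygotes 26 and 29, with overlapping genotypes (log2 fold change 0.16, SE 0.151). Angpt4 measured 0.890 and 0.832 in wild types, against 1.25 and 1.20 in homozygotes (0.26, SE 0.121, limma adjusted p = 0.313). Homozygotes were higher in Angpt4 without overlap, by a 1.42-fold ratio of means, and it passed the filter only through the homozygotes. The ratio of Angpt2 to Angpt1, a ratio of levels per length, was 2.53 and 3.46 in the wild types and 29.3 and 19.2 in the homozygotes.

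Tek, the angiopoietin receptor, measured 2.02 and 2.17 scaled FPKM in wild types 27 and 28, against 1.81 in each homozygote (log2 fold change -0.14, SE 0.115, limma adjusted p = 0.582). Tie1, its partner receptor, measured 2.86 and 3.23 in wild types, against 2.51 and 2.88 in homozygotes (-0.13, SE 0.124, limma adjusted p = 0.639). Homozygotes were lower in Tek without overlap, and the genotypes overlapped in Tie1. Ptprb, a phosphatase that restrains Tek, measured 2.04 and 2.10 in wild types, against 1.45 and 1.76 in homozygotes (-0.24, SE 0.125, limma adjusted p = 0.359). Angpt2 was thus 1.41 and 1.46 times the level of Tek in mice 27 and 28 and 17.2 and 15.8 times in mice 26 and 29.

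**Figure D2:**
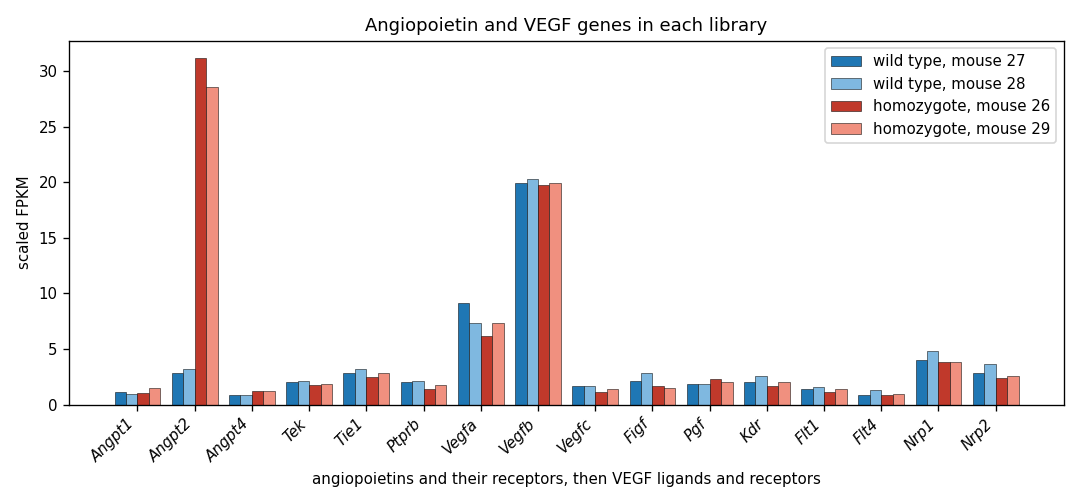
Scaled FPKM (y axis) of angiopoietins and their receptors and of VEGF ligands and receptors in each of the 4 libraries, 1 bar per mouse. The Angpt2 bars of mice 26 and 29 reach 31.2 and 28.6, while the receptors Tek, Tie1, Kdr, Flt1 and Flt4 stay under 3.3 in every library.

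VEGF receptors lay slightly lower in homozygotes, within the error of the test. Kdr, the main signalling receptor for VEGF-A, measured 2.07 and 2.60 scaled FPKM in wild types 27 and 28, against 1.67 and 2.04 in homozygotes 26 and 29 (log2 fold change -0.22, SE 0.143, limma adjusted p = 0.467). Flt1, a receptor that also acts as a trap for VEGF-A, measured 1.42 and 1.59 in wild types, against 1.17 and 1.42 in homozygotes (-0.13, SE 0.130, limma adjusted p = 0.663). In both genes the wild types lay above the homozygotes with little space between mouse 27 and mouse 29.

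The ligands and co-receptors of these systems, with related genes, formed a list of 22 names, some of them older and newer names of 1 gene. Of these names 19 were found and 17 were tested. None rose (background 4.65% of all genes tested) and 1 fell (background 3.00%). Angptl4, a lipoprotein lipase inhibitor related to angiopoietins, went from 6.74 and 7.26 scaled FPKM in wild type to 3.37 and 3.14 in homozygotes (-0.91, SE 0.110, limma adjusted p = 0.00911). That call was lost without mouse 26 and without mouse 29, and without mouse 27 2 genes of the list fell. The VEGF ligands did not pass. Vegfa measured 9.11 and 7.30 in wild types 27 and 28, against 6.18 and 7.32 in homozygotes 26 and 29 (-0.25, SE 0.146), and Vegfb was at 20.0 and 20.3 against 19.7 and 19.9 (-0.02, SE 0.097). The 2 tested genes of the list with the highest level, the hypoxia factor gene Hif1a (0.27, SE 0.125, limma adjusted p = 0.299) and the chemokine gene Cxcl12 (-0.22, SE 0.116, limma adjusted p = 0.370), did not pass.

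Egfl7 was the second largest positive value among the 27 tested genes and did not pass. It encodes a secreted factor of endothelial cells (Entrez 353156, chromosome 2, 26581056 to 26592682, mm10, plus strand). Its level was 5.09 and 4.68 scaled FPKM in wild types 27 and 28, against 6.44 and 6.43 in homozygotes 26 and 29, so both homozygotes were above both wild types. The wild-type mean was 4.89 ± 0.289 (SD, n = 2) and that of homozygotes 6.43 ± 0.00477 (SD, n = 2), a 1.32-fold ratio (log2 fold change 0.34, SE 0.107, unadjusted p = 0.0217 and adjusted p = 0.147 by limma). The authors' deposited table has Egfl7 at a log2 fold of 0.48 (q-value 0.00779), and no limma setting tried called it (limma adjusted p from 0.0649 to 0.751).

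An intron of Egfl7 holds the microRNA miR-126, known for its abundance in endothelium, which is shown because its row shares the locus. The row named Mir126 is listed at 0 in all 4 libraries, and small RNA was not measured here. The mature arm below is from RefSeq (GRCm38.p6, chr2:26591402-26591423, plus strand), with the seed, bases 2 to 8, in capitals.
mmu-miR-126a-3p: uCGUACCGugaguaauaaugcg

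Promoter windows of RefSeq (GRCm38.p6, 250 bases before to 50 after a start) were found for 18 of the 35 genes, in 21 windows. There was none for Angpt2 or for another 16 of the genes. They were searched on both strands for the ETS core GGAAGT, the longer ETS form CCGGAAGT that contains it, and the NF-kB form made of GGG and CC with 5 bases of any kind between them. The ETS core was found in 7 of 21 windows (33.3%), against 23.8% of all 32851 windows in the table. These 7 windows belong to Egfl7, Eng, Flt1, Kdr, Selp and Tie1. The longer form was in 0 of 21 windows, against 3.89% of all windows. The NF-kB form, a loose pattern, was in 16 of 21 (76.2%), against 50.8% of all. These matches are a description of letters only, and the genes with an ETS core include Egfl7, the highest value after Angpt2, and Kdr and Eng, with values below 0. The 250 bases before a start are shown for Egfl7 and Tie1, with the ETS core on either strand in capitals. For Sele, a gene induced by NF-kB in inflamed vessels, the NF-kB form is in capitals.
Egfl7 (chr2:26580833-26581082, plus strand): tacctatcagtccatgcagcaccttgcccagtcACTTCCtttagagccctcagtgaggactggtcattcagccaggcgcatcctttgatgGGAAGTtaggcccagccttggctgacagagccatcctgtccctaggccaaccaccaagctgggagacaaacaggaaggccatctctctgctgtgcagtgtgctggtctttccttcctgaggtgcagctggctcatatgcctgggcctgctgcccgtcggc
Tie1 (chr4:118489850-118490099, minus strand): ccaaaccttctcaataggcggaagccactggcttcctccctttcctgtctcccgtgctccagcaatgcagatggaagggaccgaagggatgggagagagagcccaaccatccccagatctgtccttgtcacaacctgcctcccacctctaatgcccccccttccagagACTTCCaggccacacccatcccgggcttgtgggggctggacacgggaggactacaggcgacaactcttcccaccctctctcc
Sele (chr1:164047984-164048233, plus strand): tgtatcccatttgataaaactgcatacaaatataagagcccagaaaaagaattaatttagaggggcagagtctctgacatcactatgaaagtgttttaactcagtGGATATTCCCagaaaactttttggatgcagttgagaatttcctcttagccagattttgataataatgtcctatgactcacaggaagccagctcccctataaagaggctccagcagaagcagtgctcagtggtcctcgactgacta

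The genes that define endothelial identity lay mostly a little lower in homozygotes, and none passed. Without Angpt2, the summed level of the vascular genes was 97.3 and 99.3 scaled FPKM in wild types 27 and 28, against 85.2 and 92.0 in homozygotes 26 and 29. Those sums are 104% and 106% of the mean over libraries in wild type and 91.2% and 98.4% in homozygotes. In whole tissue, fewer endothelial cells and less RNA per cell cannot be told apart. Of the 27 tested genes 22 lay below 0 (background 50.6% of all genes tested), and the median was -0.15, against 0.00 over all genes tested (-0.003). Both homozygotes were below both wild types in 13 of the 27 (background 25.8%), and above them in 3 (background 25.3%). The genes share vessels as a source, so they are not independent of each other.

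After Angpt2, the tested genes with the highest mean level over the 4 libraries were Cd34, Plvap and Pecam1, and none of these passed. Cd34, a sialomucin of endothelium and some stromal cells, measured 13.2 and 12.9 scaled FPKM in wild types 27 and 28, against 11.9 and 12.4 in homozygotes 26 and 29 (log2 fold change -0.10, SE 0.10, limma adjusted p = 0.665). Pecam1, a junction protein of all endothelium, measured 10.5 and 11.1 in wild types, against 9.06 and 9.13 in homozygotes (-0.22, SE 0.101, limma adjusted p = 0.290). Plvap, which forms the diaphragms of fenestrated capillaries, measured 9.68 and 10.9 in wild types, against 9.36 and 11.2 in homozygotes, with the same mean of 10.3 in both genotypes. Homozygotes were below wild types without overlap in Cd34 and Pecam1, and in Plvap the genotypes overlapped.

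Esam, Icam2, Emcn and Robo4, found at junctions or on the surface of endothelial cells, did not pass. Esam, an adhesion molecule of tight junctions, was at 5.89 in both wild types and at 4.80 and 4.98 scaled FPKM in mice 26 and 29 (-0.23, SE 0.104, limma adjusted p = 0.299). Icam2, a junctional adhesion molecule, measured 2.00 and 1.70 in wild types, against 1.66 and 1.44 in homozygotes (-0.16, SE 0.129). In both, the homozygotes lay under the wild types. Emcn, a sialomucin of capillaries and veins, measured 6.69 and 5.47 in wild types 27 and 28, against 5.18 and 5.96 in homozygotes 26 and 29, so the genotypes overlapped (-0.11, SE 0.137). Robo4, a guidance receptor that steadies vessels, measured 1.14 and 1.54 in wild types, against 0.931 and 1.15 in homozygotes (-0.20, SE 0.147). The wild types differed from each other in Robo4 by more than mouse 27 did from mouse 26.

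Signalling and matrix genes of endothelium followed the same range. Rasip1, a Ras effector needed for vessel lumens, had the lowest value of the 27, at 2.35 and 2.90 scaled FPKM in wild types 27 and 28, against 1.89 and 2.00 in homozygotes 26 and 29 (-0.30, SE 0.131, limma adjusted p = 0.279). Eng, a co-receptor for TGF-beta family ligands, measured 8.20 and 8.92 in wild types, against 6.80 and 7.53 in homozygotes (-0.23, SE 0.112, limma adjusted p = 0.329). The end of Eng overlaps the opposite-strand gene Fpgs, which was level between genotypes (log2 fold change -0.04, SE 0.102). Mmrn2, an extracellular protein of the vessel wall, measured 2.60 and 2.93 in wild types, against 2.15 and 2.29 in homozygotes (-0.22, SE 0.119). Rasip1, Eng and Mmrn2 each had both homozygotes under both wild types.

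Von Willebrand factor, the clotting protein stored in endothelium, was measured through Vwf at 2.21 and 2.82 scaled FPKM in wild types 27 and 28, against 2.00 and 2.26 in homozygotes 26 and 29 (-0.16, SE 0.139). The lipase-binding protein gene Gpihbp1, a capillary gene, measured 5.45 and 4.70 in wild types, against 4.76 and 4.17 in homozygotes (-0.15, SE 0.126). S1pr1, a receptor for sphingosine 1-phosphate, measured 3.34 and 2.40 in wild types, against 2.32 and 2.59 in homozygotes (-0.15, SE 0.156). In these 3 genes the genotypes overlapped. The apelin receptor gene Aplnr measured 2.19 and 2.69 in wild types, against 2.45 and 2.54 in homozygotes (0.03, SE 0.128), with the homozygotes between the wild types.

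Of the SoxF transcription factors, which act in vessel formation, only Sox18 passed the filter. Sox18 measured 3.76 and 3.47 scaled FPKM in wild types 27 and 28, against 2.72 and 3.31 in homozygotes 26 and 29 (-0.20, SE 0.128, limma adjusted p = 0.450). Sox7 was at 0.852 and 0.843 in wild types, against 1.09 and 0.838 in homozygotes 26 and 29, and Sox17 at 0.732 and 0.625, against 0.425 and 0.734. Both overlapped between genotypes. Nos3, the endothelial nitric oxide synthase gene, measured 0.631 and 0.640 in wild types, against 0.451 and 0.569 in homozygotes. It was lower in both homozygotes, and its end overlaps the opposite-strand gene Atg9b. The tip cell genes Esm1 and Apln were lower still: Esm1 lay between 0.160 and 0.311 and Apln between 0.101 and 0.283 scaled FPKM, with overlapping genotypes.

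**Figure D3:**
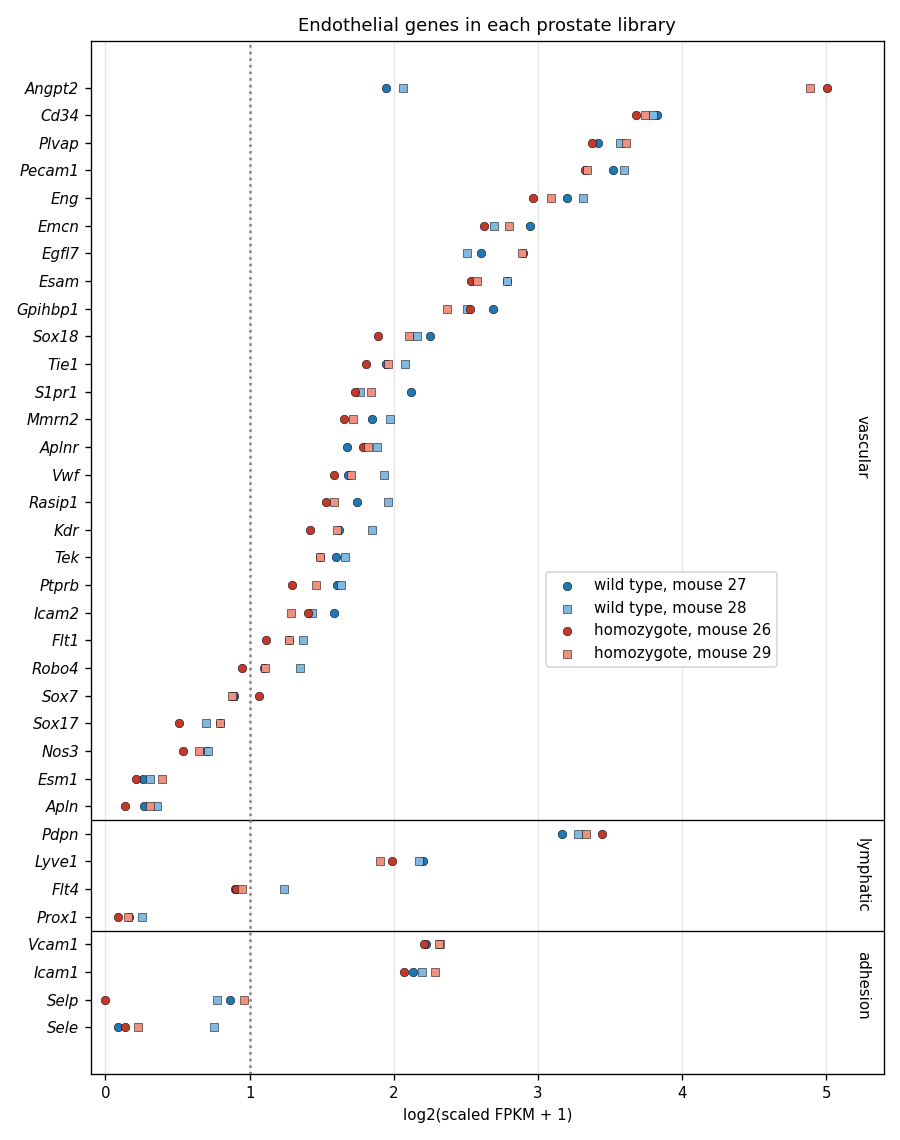
Log2(scaled FPKM + 1) of all 35 genes (x axis) in each library, 1 point per mouse. Horizontal lines divide vascular, lymphatic and adhesion genes, and a dotted line marks 1 scaled FPKM. For Angpt2 the homozygotes (31.2 and 28.6 scaled FPKM) stand far to the right of the wild types (2.86 and 3.17), mouse 28 stands apart in Sele (0.682), and mouse 26 is at 0 in Selp.

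Lymphatic genes did not pass and did not share a direction. Lyve1, a hyaluronan receptor of lymphatic endothelium and of some macrophages, measured 3.61 and 3.51 scaled FPKM in wild types 27 and 28, against 2.96 and 2.74 in homozygotes 26 and 29 (-0.24, SE 0.112, limma adjusted p = 0.295). Pdpn, a mucin-like protein of lymphatic vessels that basal epithelium and fibroblasts also make, measured 7.99 and 8.70 in wild types, against 9.88 and 9.10 in homozygotes (0.17, SE 0.109, limma adjusted p = 0.475). Lyve1 was lower and Pdpn higher in both homozygotes. Flt4, the receptor for VEGF-C, measured 0.860 and 1.36 in wild types, against 0.876 and 0.928 in homozygotes (-0.14, SE 0.158). It passed the filter through mouse 28 alone. Prox1, the defining transcription factor of lymphatic endothelium, measured 0.123 and 0.190 in wild types, against 0.0628 and 0.117 in homozygotes, too low for the test, and Ccl21a is listed at 0 in every library. The summed level of the 6 lymphatic markers was 14.0 to 15.2 in wild type and 14.0 to 14.9 in homozygotes, most of it from Pdpn.

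Neither of the adhesion genes that could be tested passed the threshold. Vcam1, a ligand for leukocyte integrins, measured 3.67 and 3.99 scaled FPKM in wild types 27 and 28, against 3.62 and 3.97 in homozygotes 26 and 29 (log2 fold change -0.01, 95% interval -0.30 to 0.28). Icam1, another integrin ligand that epithelium and macrophages also make, measured 3.38 and 3.59 in wild types, against 3.21 and 3.87 in homozygotes (0.01, 95% interval -0.30 to 0.33). The genotypes overlapped in both, and the spread within a genotype was larger than the difference of the means. NF-kB feedback genes, which share that regulator with the adhesion genes, included 3 of 10 tested that rose (background 4.65% of all genes tested) and none that fell. Those that rose were Nfkbia (0.49, SE 0.099), Relb (0.65, SE 0.109) and Bcl3 (2.04, SE 0.149). The calls of Nfkbia and Relb were lost without mouse 26 and without mouse 29, that of Nfkbia also with quantile normalization and with no trend, and that of Relb also with no filter. Without mouse 27 or without mouse 28 5 of the 10 rose, and 1 fell without mouse 27.

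The selectins fell under the filter. Sele, the E-selectin gene of activated endothelium, measured 0.0612 and 0.682 scaled FPKM in wild types 27 and 28, against 0.0961 and 0.167 in homozygotes 26 and 29. Mouse 28 alone was high, and wild-type mouse 27 was the lowest of the 4. The authors' deposited table has Sele at a log2 fold of -1.65 (q-value 0.0337). Limma without a filter gave -0.24 (SE 0.230, adjusted p = 0.661) on the log2(scaled FPKM + 1) scale. That scale understates low genes, so the 2 folds cannot be compared in size. The plain ratio of the Sele means, homozygote over wild type, was 0.354. Selp, the P-selectin gene of endothelium and platelets, was at 0.820, 0.707 and 0.949 in mice 27, 28 and 29 and is listed at 0 in mouse 26. The ratio of the Selp means, homozygote over wild type, was 0.621 with that 0 included. The authors' deposited table has Selp at a log2 fold of 0.24 (q-value 0.842), the other direction. Whether the 0 of mouse 26 stands for absence or for a value not measured cannot be told. Platelet markers were low, with only Pf4 tested (-0.14, SE 0.230).

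Differences between mice of 1 genotype also ran through many of the genes at once. Mouse 28 was above mouse 27 in 18 of the 27 tested genes (background 51.7% of all genes tested), and mouse 29 above mouse 26 in 21 (background 49.2%). Kdr, for example, stood higher in mouse 28 than in mouse 27 (2.60 against 2.07) and higher in mouse 29 than in mouse 26 (2.04 against 1.67). Icam2 and Gpihbp1 ran the other way in both pairs. Leaving out each library in turn left between 19 and 23 of the tested genes below 0, with medians from -0.20 to -0.10.

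Further endothelial genes, from a list of 32 with 26 tested, held 4 that rose (background 4.65% of all genes tested) and none that fell (background 3.00%). Ecscr, a surface protein of endothelium, went from 5.15 and 4.23 scaled FPKM in wild types 27 and 28 to 40.8 and 33.6 in homozygotes 26 and 29 (log2 fold change 2.74, SE 0.145, limma adjusted p = 5.93e-04). Afap1l1, an actin-associated protein gene, went from 1.61 and 1.94 to 16.0 and 15.9 (2.62, SE 0.115, limma adjusted p = 3.57e-04). Ramp2, a partner of the adrenomedullin receptor, went from 8.07 and 8.51 to 24.6 and 23.7 (1.44, SE 0.101, limma adjusted p = 0.00154). Like Angpt2, these 3 had both homozygotes far above both wild types and were called under all 11 other limma settings. Lmo2, a transcription cofactor of blood and endothelium, rose by less (0.88, SE 0.10), and its call was lost without mouse 26 and without mouse 29. The other 22 included the VE-cadherin gene Cdh5 at 4.48 and 4.93 in wild type and 3.39 and 3.75 in homozygotes (-0.32, SE 0.116, limma adjusted p = 0.194). The median of the 26 was -0.07 (leaving out mouse 28 gave -0.002, mouse 26 -0.006 and mouse 29 -0.14, and unscaled FPKM gave 0.004), and without mouse 27 another 2 of the list fell. Gata2, a transcription factor gene and the most abundant of the list, did not pass (-0.08, SE 0.136).

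Genes of vessel subtypes also held a few large rises, read beside the 4.65% of all genes tested that passed as higher and the 3.00% as lower. Among 12 tested arterial and tip genes 1 rose, Notch4, an endothelial Notch receptor, from 0.606 and 0.674 scaled FPKM in wild type to 2.26 and 2.42 in homozygotes (1.03, SE 0.121, limma adjusted p = 0.00833). Notch4 passed the filter only through the homozygotes. The list median was -0.17 (leaving out mouse 28 gave -0.02 and mouse 26 0.01, and unscaled FPKM gave -0.10), without mouse 28 2 genes rose, and without mouse 27 1 fell. The most abundant genes, Unc5b (-0.20, SE 0.237) and Efnb2 (-0.17, SE 0.215), did not pass. Among 11 tested venous and capillary genes 3 rose and none fell, with a median of -0.17 (leaving out mouse 27 gave -0.09, mouse 28 -0.05 and mouse 26 -0.26, and unscaled FPKM gave -0.09), and without mouse 28 5 fell. Those that rose were the fatty acid binding protein gene Fabp5 (1.14, SE 0.125) and the surface antigen genes Ly6c1 (3.73, SE 0.171) and Ly6a (2.80, SE 0.179), and none of the 3 is restricted to endothelium. Fabp4, the capillary fatty acid binding protein gene, measured 157 and 124 in wild types, against 112 and 101 in homozygotes (-0.39, SE 0.160, limma adjusted p = 0.250).

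**Figure D4:**
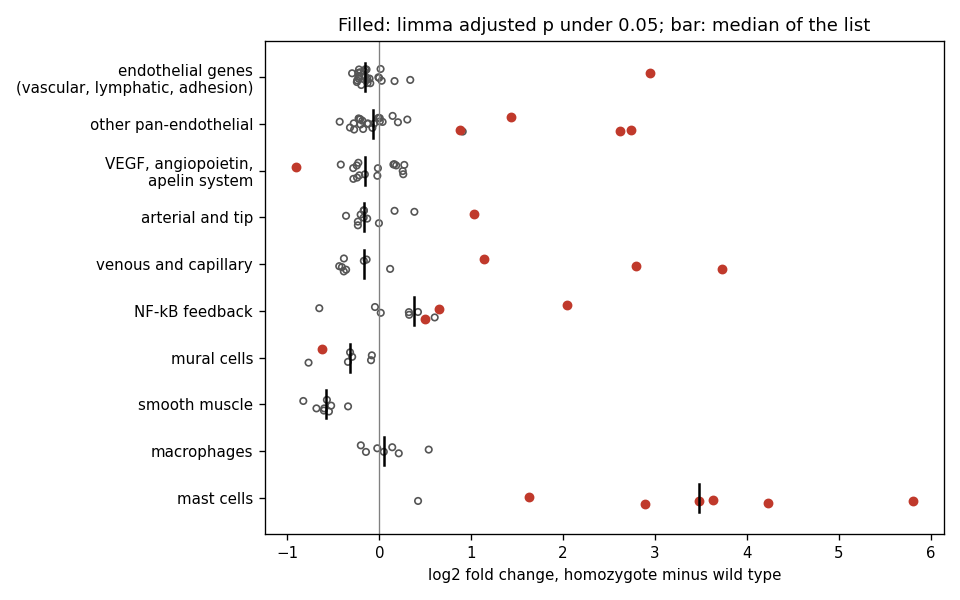
Log2 fold change (x axis, homozygote minus wild type) of each tested gene in the endothelial set and in 9 comparison lists, 1 point per gene, filled where the limma adjusted p was under 0.05, with a bar at the list median. The endothelial set is centred at -0.15 with Angpt2 apart at 2.94, smooth muscle is centred at -0.59 and mast cells at 3.48.

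Cell types that border vessels were read beside these values. Over all genes tested, 4.65% passed as higher and 3.00% as lower. Smooth muscle markers were lower in both homozygotes in 8 of 8 tested genes (background 25.8% of all genes tested). None of them passed (0 of 8 by limma, 6 with an unadjusted p under 0.05). Their summed level was 2733 and 1875 scaled FPKM in wild types 27 and 28, against 1340 and 1577 in homozygotes 26 and 29, and their median was -0.59. Without mouse 28 6 of the 8 passed, with quantile normalization 2, and without mouse 27 1, where the median was -0.38. Red blood cell markers were also lower in both homozygotes in 4 of 4 tested genes (background 25.8%), with a median of -0.89. Their sums were 687 and 509 in wild types 27 and 28, against 352 and 294 in homozygotes 26 and 29. Of these Alas2, the heme synthesis gene of red cell precursors, fell (-0.78, SE 0.161, limma adjusted p = 0.0476). That call did not hold in 6 of the 11 alternatives (either other scaling, no trend, no filter, and leaving out mouse 26 or mouse 29), while without mouse 28 3 of the 4 fell. Among 8 fibroblast markers only Postn, a matrix protein gene, fell (-0.87, SE 0.114, limma adjusted p = 0.0114), a call lost without mouse 26 and without mouse 29, and without mouse 28 2 fell. Macrophage markers did not pass in 7 tested genes, with sums of 58.9 and 41.1 in wild type and 58.6 and 50.3 in homozygotes, and without mouse 27 3 of them rose. Of the leukocyte integrins and ligands that meet adhesion genes, Cd99l2 rose (0.57, SE 0.110, limma adjusted p = 0.0394) among 9 tested, and its call was lost without mouse 26, without mouse 29, with unscaled FPKM and with no filter, and without mouse 27 3 of the 9 rose and without mouse 28 2. Of 5 general leukocyte markers 4 lay above 0 and 1 below, and Laptm5 rose (0.85, SE 0.121, limma adjusted p = 0.0152), a call lost without mouse 26. Among 9 prostate epithelium markers 7 lay above 0 and 2 below, with a median of 0.24 (0.175 without mouse 27 and 0.55 without mouse 28). Only Epcam rose, a call lost with no filter and without mouse 28, mouse 26 or mouse 29. Without mouse 28 other markers of the list passed as higher. The part of these cell types in the endothelial values was not tested.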

How the data were processed

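RNA was extracted with an RNeasy Plus kit and sequenced after standard Illumina library preparation, per the labels' protocols. The authors deposited 1 FPKM value per gene and library, in 4 columns. The unit was read from the values, and TopHat 1.3, Cufflinks 1.3 and the build mm10 are named, without settings, in the submitters' processing notes. The deposited table also gives the authors' fold (a log2 score column that codes an infinite fold by an extreme value), and per gene a p-value with its q-value, by a tool that the labels do not name. Starts were raised by 1 to count from 1.

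The value 99999, held by 7 genes, was read as a code and treated as missing. FPKM were divided by median-of-ratios factors over the 11080 genes at 1 FPKM or more in all libraries. Log2(scaled FPKM + 1) of genes with a mean of at least 1 went into limma 3.58.1, run in R 4.3.3 (eBayes with a trend, two-sided), with 2 residual degrees of freedom per gene, and the script was tested on simulated data. Fold changes on that scale understate low genes. Intervals are 95% for each gene alone. FPKM are not counts, so no count test was run. Depth was estimated from the lowest values of genes with 1 annotated transcript, in log2 bins of width 0.2.

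The 35 genes and the lists were chosen with earlier results of these data known. Every one of the 35 is named. From each other list, the called genes and the 2 with the highest level were to be named, and other named genes were chosen after their values were seen. The alternatives changed the scaling (none, or quantile normalization), the pseudocount (0.1), the filter (none, or a mean of 5), and the trend (none, or robust). Each library was also left out in turn, and the authors' deposited call was read beside the fits.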

Additional observations from a re-analysis of the deposited data

How the results depend on the processing

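Angpt2 was called under all 11 other limma settings, with log2 fold changes from 2.88 to 3.27 and adjusted p from 1.73e-06 to 0.00361, and it was the only gene of the 35 called in any of them (0 lower in each). The authors' deposited table calls 2 higher (Angpt2 and Egfl7) and 1 lower (Sele). The count of genes below 0, 22 of 27, was 6 of the 9 tested at a minimum mean of 5, where fewer genes were tested, and 19 to 23 with a library left out. The median of -0.15 was -0.10 (-0.095) with unscaled FPKM, -0.10 with quantile normalization, -0.21 with a pseudocount of 0.1, -0.10 (-0.098) at a minimum mean of 5, and -0.20 to -0.10 with a library left out. The cause of these shifts was not tested. Of 278 single values under the alternatives, 12 had the other sign, in 6 genes, and none of these was past the threshold. Over all genes, 900 were called, and with mouse 27, 28, 26 or 29 left out the number was 2058, 1752, 382 or 480. Each fit with a library left out takes the spread of the remaining pair for the single mouse. No paired analysis was possible because the genotypes share no mouse number. At 2 mice per genotype, the 95% half-widths of 0.25 to 0.39 limit what can be detected for single genes. They hold for each gene alone, while a call needs an adjusted p under 0.05, which is stricter. In simulated data with 200 changed genes among 11762, 54% of changes of 1 on the log2 scale were called, and 97% of changes of 2.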
